A study of Homo sapiens with 15 samples.

Results

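The 39 G2 and mitosis genes described here are human genes whose products carry a cell through G2, spindle assembly, chromosome segregation and cytokinesis. They were taken as a list of gene names and matched by symbol among the 57773 genes counted in 15 bone marrow libraries. All 39 were found, and all 39 passed the filter on low counts, which kept 13085 genes. The rule that chose them used no measured value, but the list was drawn up with earlier results of these data known.

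Expression was measured by total RNA sequencing of marrow from immunodeficient SCID-beige mice that carried MM.1S, an established human multiple myeloma cell line with green fluorescent protein and luciferase reporters. All mice, including the controls, had been injected with MM.1S cells by vein, and each group held 5 mice. The 4 treated groups were bortezomib, a proteasome inhibitor, at 0.25 mg/kg, elesclomol, a copper ionophore, at 25 mg/kg, the 2 given together throughout (combination), and bortezomib joined by elesclomol after 14 days (delayed combination). The control group, labelled PBS, received saline. Each group had 3 libraries, each from a separate tumour per the design text, so n = 3 unless stated. The tumours come from a single cell line, and marrow was collected at the endpoint (limb paralysis or severe toxicity), with the time on treatment of each mouse not stated.

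Entry into mitosis is driven by CDK1 bound to cyclin A or cyclin B, which the CDC25 phosphatases switch on. The aurora and polo kinases then build the spindle, the checkpoint kinases hold back the anaphase-promoting complex until every kinetochore is attached, and anillin with the centralspindlin complex cuts the cell apart. Most of these genes are transcribed together late in the cycle by the MuvB complex with B-MYB and FOXM1, which acts through the cell cycle genes homology region (CHR) of the promoter, often next to CCAAT boxes bound by NF-Y. Myeloma cells divide slowly in patients, and the rate at which MM.1S cells cycled in these mice was not measured.

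Promoters of a few of these genes are shown as background to their transcription. Within groups, pairs of genes of like transcript GC content varied together (median correlations 0.69 and 0.75) and mixed pairs did not (-0.30). A part of the promoters in this was not tested. RefSeq promoters (GRCh38.p14, 250 bases before to 50 after the annotated start) were matched for 33 of the 39 genes; AURKA, BIRC5, FOXM1, TPX2, TTK and UBE2C were not matched. For 6 genes with more than 1 listed start the first was used, and this build is not that of the counts. The motif TTTGAA or TTTAAA, the CHR, was present on either strand in 27 of the 33 promoters (81.8%), and in 24.3% of the 27305 promoters of the same length. The CCAAT motif, on either strand, was present in 24 of the 33 (72.7%) and in 35.7% of all. At least 2 CCAAT motifs were present in 16 of the 33 (48.5%, and 11.3% of all), and both motifs in 21 (63.6%, and 9.49% of all). The motifs overlapped each other in 1 of the 33 promoters and in 53 of all promoters. These matches are descriptions of letters, not of bound sites. The 3 genes with the smallest p over all treatments (CDK1, KIF23, ANLN) and a cyclin B gene with 4 CCAAT motifs (CCNB2) are printed 5′ to 3′ on the gene's strand, with CHR and CCAAT matches of either strand in capitals. They were chosen after their values were seen. CDK1 lies at chr10:60778081-60778380 (+), CCNB2 at chr15:59104896-59105195 (+), KIF23 at chr15:69414099-69414398 (+) and ANLN at chr7:36389612-36389911 (+).
CDK1: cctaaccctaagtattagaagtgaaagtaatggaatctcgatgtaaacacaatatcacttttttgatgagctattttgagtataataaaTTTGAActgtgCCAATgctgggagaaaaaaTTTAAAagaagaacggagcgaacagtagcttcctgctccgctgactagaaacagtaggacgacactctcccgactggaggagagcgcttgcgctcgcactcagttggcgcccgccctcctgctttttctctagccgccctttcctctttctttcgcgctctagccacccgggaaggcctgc
CCNB2: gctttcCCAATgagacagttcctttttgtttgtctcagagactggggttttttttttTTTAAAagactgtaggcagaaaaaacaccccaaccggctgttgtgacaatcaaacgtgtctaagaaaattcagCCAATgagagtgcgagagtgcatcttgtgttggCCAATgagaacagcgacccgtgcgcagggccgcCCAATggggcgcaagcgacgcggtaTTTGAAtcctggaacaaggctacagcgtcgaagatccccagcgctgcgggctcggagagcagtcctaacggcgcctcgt
KIF23: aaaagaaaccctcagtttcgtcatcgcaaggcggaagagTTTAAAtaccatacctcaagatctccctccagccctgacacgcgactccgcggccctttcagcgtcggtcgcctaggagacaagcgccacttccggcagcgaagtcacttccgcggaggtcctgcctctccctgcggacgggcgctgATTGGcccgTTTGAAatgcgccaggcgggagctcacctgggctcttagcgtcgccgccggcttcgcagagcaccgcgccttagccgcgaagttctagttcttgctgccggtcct
ANLN: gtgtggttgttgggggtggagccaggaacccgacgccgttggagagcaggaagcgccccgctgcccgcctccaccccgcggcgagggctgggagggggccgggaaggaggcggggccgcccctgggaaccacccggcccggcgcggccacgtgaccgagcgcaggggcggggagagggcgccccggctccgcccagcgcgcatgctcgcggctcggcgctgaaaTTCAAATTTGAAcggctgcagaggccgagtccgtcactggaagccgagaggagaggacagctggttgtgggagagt
CDK1 has a CHR match on each side of its CCAAT box. CCNB2 has its downstream CHR match behind an array of CCAAT boxes. KIF23 has a reverse-strand CCAAT box shortly before its downstream CHR match. In ANLN the 2 CHR matches stand head to head and no CCAAT match is present.

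The deposited counts summed to 4500326 to 13161087 per library, and the 39 genes held 14004 to 38659 reads in each. Levels are CPM, the counts of a gene relative to the TMM-scaled library size, and changes are log2 fold changes ± standard error from the quasi-likelihood model of edgeR, whose p was adjusted over 13085 genes by the Benjamini-Hochberg method. The 4 comparisons with PBS share its 3 libraries. Markers of plasma cells, the lineage of MM.1S, were all present. The 13 summed to 14698 to 15423 CPM with bortezomib, 15526 to 16657 CPM with elesclomol, 14163 to 16045 CPM with the combination, 15460 to 17352 CPM with the delayed combination and 14931 to 15478 CPM with PBS. Of 15 red cell markers 6 averaged at least 1 CPM, with HBB and HBD at means of 41.8 and 42.7 CPM, while HBA1 was at 0 in every library. Of 11 macrophage markers 4 averaged at least 1 CPM, with LYZ at a mean of 20.9 CPM, while MARCO was at 0. Of 5 platelet lineage markers 0 averaged at least 1 CPM. Among them ITGA2B reached 6.40 CPM in its highest library and PF4 was at 0. The libraries bortezomib 1, combination 1 and delayed combination 2 stood apart by the GC content of the genes, and elesclomol 1 by host markers. Values for both are given for the list as a whole, and for some of the single genes only.

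Over the 4 treatments together, the G2 and mitosis genes were mostly lower than with PBS, by small amounts and without any gene passing the test. Of the 39 genes 34 lay below 0 (47.8% of all tested genes did), with a median log2 change of -0.14 beside 0.01 over all tested genes. The 39 genes together held 2300.4 to 3235 CPM in the 12 treated libraries and 3161, 3564 and 3698 CPM in the PBS libraries. CDK1, the kinase that drives mitosis, was at 50.5 to 84.7 CPM in treated tumours and 89.6 to 95.9 CPM with PBS. At an unadjusted p under 0.05, 10 genes were lower (6.3% of all tested genes) and 0 were higher (7.66% of all). By edgeR's adjusted p 0 of the 39 passed (0.0229% of all tested genes passed in either direction). DESeq2 called 0 (56 of all tested genes) and limma voom 7, all of them lower (1322 of all tested genes in either direction). Treated and PBS libraries did not overlap for 5 genes, all lower: CDK1, TTK, CENPF, ASPM and HMMR (1.54% of all tested genes were lower in this way), and 0 were higher without overlap (1.25%). In bulk marrow, fewer cycling cells and less RNA of these genes per cell cannot be told apart.

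**Figure D1:**
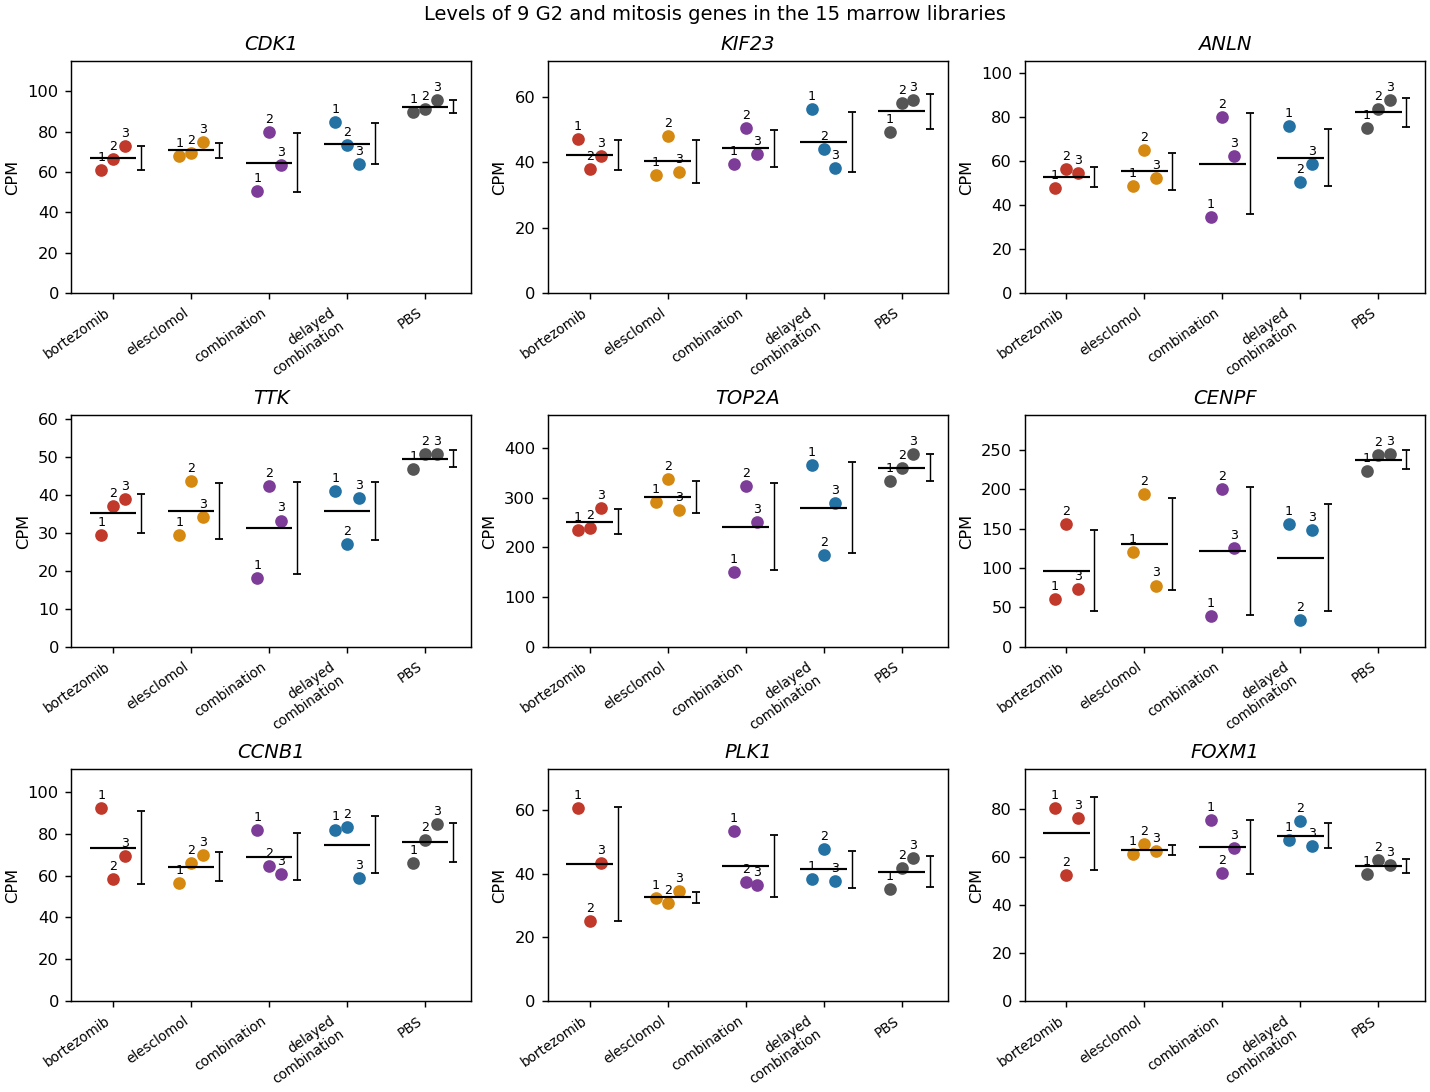
Levels in CPM (linear axis from 0) of 9 G2 and mitosis genes in each library, by group, with the library number beside each point, the group mean as a line and the SD (n = 3) as a bar. All 12 treated libraries lie below the 3 PBS libraries for CDK1, TTK and CENPF, whereas CCNB1 and PLK1 overlap PBS in most groups and FOXM1 lies mostly above it.

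Among CDK1 and its activators (7 genes), CDK1 itself stood apart from the cyclins as counted. CDK1 was at 60.9, 66.6 and 72.9 CPM with bortezomib, 67.8, 69.6 and 75.0 CPM with elesclomol, 50.5, 79.7 and 63.7 CPM with the combination and 84.7, 73.5 and 64.1 CPM with the delayed combination, against 89.6, 91.4 and 95.9 CPM with PBS. Every treated library lay below every PBS library, with the lowest in combination 1 and the highest in delayed combination 1. Its log2 change was -0.42 ± 0.11 over all treatments (edgeR adjusted p = 0.208), -0.47 ± 0.14 with bortezomib (adjusted p = 0.419), -0.38 ± 0.14 with elesclomol (0.519), -0.52 ± 0.14 with the combination (0.235) and -0.32 ± 0.14 with the delayed combination (0.446). After a correction for GC content and length the change over all treatments was -0.13 ± 0.12. CCNA2, the A-type cyclin of S and G2 phase, was at 105, 76.3 and 102 CPM with bortezomib, 83.2, 95.7 and 92.4 CPM with elesclomol, 99.9, 83.1 and 85.8 CPM with the combination and 106, 101 and 85.4 CPM with the delayed combination, against 88.5, 99.2 and 103 CPM with PBS. All 4 treated groups overlapped PBS (-0.06 ± 0.10). The B cyclins behaved likewise, CCNB1 at -0.11 ± 0.14 and CCNB2 at -0.11 ± 0.17 over all treatments. After the GC and length correction CCNA2, CCNB1 and CCNB2 were at 0.03 ± 0.12, -0.06 ± 0.15 and -0.09 ± 0.16. CDK1, at -0.13 ± 0.12, then lay close to the B cyclins.

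CKS2, a small subunit that docks CDK1 to its substrates, was at 30.9, 20.9 and 24.6 CPM with bortezomib, 23.2, 19.7 and 21.2 CPM with elesclomol, 30.4, 22.2 and 20.9 CPM with the combination and 27.4, 29.4 and 23.8 CPM with the delayed combination, against 30.7, 27.6 and 31.2 CPM with PBS. The elesclomol libraries did not overlap PBS (-0.48 ± 0.16, edgeR adjusted p = 0.481), but in the 3 other treatments the groups overlapped, with log2 changes of -0.22 ± 0.16, -0.28 ± 0.16 and -0.15 ± 0.16. CDC25B, a phosphatase that starts CDK1 activation, went the other way with elesclomol, at 72.2, 66.6 and 67.0 CPM against 49.0, 57.8 and 63.2 CPM with PBS. The elesclomol libraries all lay above PBS (0.27 ± 0.12, edgeR adjusted p = 0.588). Over all treatments CDC25B was at 0.09 ± 0.09 as counted and -0.06 ± 0.09 after the GC and length correction. CDC25C, its partner at the G2 border, was at 7.56 to 13.0 CPM in treated libraries and 9.03 to 11.4 CPM with PBS.

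Among the mitotic kinases and the passenger subunit (4 genes), AURKA and PLK1 were lower with elesclomol, and the other mean changes against PBS were close to 0. AURKA, which matures the centrosomes, was at 45.6, 20.0 and 26.4 CPM with bortezomib, 21.0, 28.0 and 25.4 CPM with elesclomol, 42.8, 34.4 and 28.1 CPM with the combination and 35.2, 37.9 and 31.2 CPM with the delayed combination, against 30.5, 31.2 and 37.6 CPM with PBS. All elesclomol libraries lay below PBS (-0.41 ± 0.25, edgeR adjusted p = 0.723). PLK1, the polo kinase, was at 32.3, 30.9 and 34.5 CPM with elesclomol, against 35.2, 41.8 and 44.8 CPM with PBS (-0.32 ± 0.25, adjusted p = 0.808). These also lay below all PBS libraries without overlap. With bortezomib both genes spread widely, PLK1 at 60.7, 25.1 and 43.4 CPM, and both overlapped PBS. In each case bortezomib 1 was the highest and bortezomib 2 the lowest library of the group. Over all treatments AURKA and PLK1 were at -0.09 ± 0.19 and -0.04 ± 0.20. Without the 3 GC-rich libraries they were at -0.25 ± 0.11 and -0.20 ± 0.13. AURKB, the kinase of the chromosomal passenger complex, was at 41.2, 26.2 and 29.1 CPM with bortezomib, 27.9, 31.2 and 27.5 CPM with elesclomol, 34.6, 29.01 and 27.9 CPM with the combination and 30.4, 31.4 and 25.0 CPM with the delayed combination, against 28.2, 28.2 and 34.96 CPM with PBS. BIRC5, its subunit survivin, was at 103, 51.8 and 75.2 CPM with bortezomib, 62.0, 68.3 and 77.3 CPM with elesclomol, 97.6, 68.1 and 67.9 CPM with the combination and 89.6, 81.2 and 59.8 CPM with the delayed combination, against 62.5, 74.7 and 81.2 CPM with PBS. Both overlapped PBS in every treated group, at -0.02 ± 0.13 and 0.04 ± 0.18 over all treatments.

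All 9 kinetochore and spindle checkpoint genes lay below 0 over all treatments as counted, with a median of -0.24. After the GC and length correction BUB1 and MAD2L1 were at 0.006 and 0.09, and the others of this role stayed below 0. TTK, the MPS1 kinase that starts checkpoint signalling, was at 29.5, 37.2 and 38.9 CPM with bortezomib, 29.4, 43.8 and 34.2 CPM with elesclomol, 18.2, 42.4 and 33.3 CPM with the combination and 41.2, 27.2 and 39.2 CPM with the delayed combination, against 47.0, 50.9 and 50.9 CPM with PBS. No treated library reached PBS, and combination 1 was the lowest (-0.53 ± 0.20 over all treatments, edgeR adjusted p = 0.311). CENPF, a large kinetochore protein of G2, was at 61.1, 156 and 73.1 CPM with bortezomib, 120.2, 193 and 77.8 CPM with elesclomol, 38.7, 200.1 and 125 CPM with the combination and 156, 34.5 and 148 CPM with the delayed combination, against 223, 244 and 245 CPM with PBS. The treated libraries spread over several-fold while the PBS libraries lay close together (-1.05 ± 0.46, adjusted p = 0.347).

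CENPE, the kinesin that carries chromosomes to the spindle equator, had the furthest change of the 39 at -1.31 ± 0.57, but its PBS libraries spread too. CENPE was at 17.1, 66.3 and 21.5 CPM with bortezomib, 30.9, 86.6 and 16.6 CPM with elesclomol, 10.4, 75.9 and 29.9 CPM with the combination and 37.7, 13.2 and 47.5 CPM with the delayed combination, against 103, 117 and 58.7 CPM with PBS. Of the 4 groups the delayed combination did not overlap PBS. NUF2, a rod subunit of the NDC80 complex, was at 29.3, 51.0 and 44.0 CPM with bortezomib, 38.1, 53.5 and 34.1 CPM with elesclomol, 24.3, 57.0 and 39.9 CPM with the combination and 43.5, 34.5 and 44.1 CPM with the delayed combination, against 54.0, 64.5 and 59.2 CPM with PBS. Only combination 2 of the 12 treated libraries exceeded the lowest PBS library for NUF2 (-0.53 ± 0.21, edgeR adjusted p = 0.333). MAD2L1, the checkpoint protein that binds CDC20, was at 59.2, 55.5 and 53.6 CPM with bortezomib, 50.1, 42.7 and 51.5 CPM with elesclomol, 57.3, 56.2 and 54.2 CPM with the combination and 70.04, 66.7 and 50.7 CPM with the delayed combination, against 59.8, 61.1 and 59.7 CPM with PBS. The bortezomib, elesclomol and combination libraries lay below PBS without overlap, and delayed combination 1 and 2 lay above it. With elesclomol its log2 change was -0.32 ± 0.12 (adjusted p = 0.499). BUB1, the kinase that recruits the checkpoint proteins, was at 176, 138 and 158 CPM with bortezomib, 135, 172 and 167 CPM with elesclomol, 153, 154 and 142 CPM with the combination and 178, 163 and 142 CPM with the delayed combination, against 156, 166 and 178 CPM with PBS. The combination libraries lay below PBS without overlap (-0.16 ± 0.12, adjusted p = 0.544), and over all treatments BUB1 was at -0.09 ± 0.09. CENPA, the centromeric histone, lay below PBS without overlap with elesclomol (-0.42 ± 0.22, adjusted p = 0.678) and overlapped it in the other groups (-0.06 ± 0.17 over all treatments). BUB1B, which blocks the anaphase-promoting complex, and NDC80, which grips microtubules, overlapped PBS in every group, at -0.11 ± 0.11 and -0.24 ± 0.17.

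Of the 8 spindle assembly genes 7 lay below 0 over all treatments, with a median of -0.35. ASPM, which focuses the spindle poles, was at 42.3, 116 and 52.7 CPM with bortezomib, 88.5, 162 and 53.3 CPM with elesclomol, 27.4, 159 and 84.4 CPM with the combination and 121, 27.6 and 91.1 CPM with the delayed combination, against 169.5, 171 and 190.4 CPM with PBS. All treated libraries lay below PBS, although elesclomol 2 and combination 2 came close (-1.06 ± 0.48, edgeR adjusted p = 0.355). HMMR, a spindle protein that binds hyaluronan, had the same order of libraries at the bottom, with 15.6, 10.9 and 11.9 CPM in bortezomib 1, combination 1 and delayed combination 2. The other 9 treated libraries held 36.4 to 56.2 CPM of HMMR and the PBS libraries 58.9 to 66.3 CPM (-0.73 ± 0.45, adjusted p = 0.444). KIF11, the motor that pushes the poles apart, was at 79.1, 113 and 128 CPM with bortezomib, 125, 129 and 115 CPM with elesclomol, 53.3, 134 and 116 CPM with the combination and 135, 73.5 and 122.98 CPM with the delayed combination, against 126, 131 and 161 CPM with PBS. Bortezomib 1, combination 1 and delayed combination 2 were the lowest, and every group overlapped PBS (-0.34 ± 0.24). NUSAP1, which bundles microtubules, was at 116, 88.8 and 97.8 CPM with bortezomib, 94.0, 121 and 105 CPM with elesclomol, 99.5, 104 and 79.8 CPM with the combination and 122.9, 103 and 99.2 CPM with the delayed combination, against 105, 114 and 121 CPM with PBS. Of the 4 groups the combination did not overlap PBS (-0.27 ± 0.14, adjusted p = 0.399). TPX2, KIF2C, DLGAP5 and CKAP2 had changes over all treatments of -0.08, 0.03, -0.47 and -0.36.

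All 5 midzone and cytokinesis genes lay below 0 in each comparison with PBS. KIF23, the motor subunit of centralspindlin, was at 47.2, 37.9 and 41.9 CPM with bortezomib, 36.3, 48.0 and 36.9 CPM with elesclomol, 39.6, 50.7 and 42.6 CPM with the combination and 56.2, 44.1 and 38.3 CPM with the delayed combination, against 49.4, 58.2 and 59.2 CPM with PBS. Bortezomib and elesclomol libraries lay below PBS without overlap, and combination 2 and delayed combination 1 reached into it (-0.36 ± 0.12 over all treatments, edgeR adjusted p = 0.296). ANLN, the actin-binding anillin of the contractile ring, was at 47.6, 56.4 and 54.4 CPM with bortezomib and 48.8, 64.8 and 52.0 CPM with elesclomol, against 74.7, 83.4 and 87.8 CPM with PBS. Neither group overlapped PBS for ANLN (-0.64 ± 0.24 with bortezomib and -0.57 ± 0.24 with elesclomol, adjusted p = 0.449 and 0.588). With the combination ANLN was at 34.4, 79.8 and 62.0 CPM and with the delayed combination at 75.6, 50.2 and 58.4 CPM, so both groups reached into PBS. PRC1, which crosslinks midzone microtubules, was at 74.2, 52.4 and 58.0 CPM with bortezomib, 53.8, 63.7 and 51.5 CPM with elesclomol, 69.2, 69.6 and 51.2 CPM with the combination and 72.2, 59.0 and 57.1 CPM with the delayed combination, against 68.4, 70.6 and 68.9 CPM with PBS. The elesclomol libraries lay below PBS without overlap (-0.30 ± 0.15, edgeR adjusted p = 0.659), and over all treatments PRC1 was at -0.19 ± 0.12. ECT2, the exchange factor that activates RhoA at the furrow, and KIF20A, which brings the passenger complex to the midzone, were at -0.53 ± 0.27 and -0.14 ± 0.17.

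The partners and substrates of the anaphase-promoting complex (3 genes) showed no common direction. CDC20, which activates the complex, was at 53.4, 26.7 and 35.5 CPM with bortezomib, 29.6, 25.1 and 35.5 CPM with elesclomol, 54.9, 36.4 and 33.9 CPM with the combination and 37.2, 44.9 and 31.9 CPM with the delayed combination, against 36.1, 39.02 and 39.3 CPM with PBS. The elesclomol libraries lay below PBS without overlap (-0.34 ± 0.24, edgeR adjusted p = 0.774), while bortezomib 1, combination 1 and delayed combination 2 stood above it. PTTG1, the securin that the complex degrades, was at 43.5, 26.7 and 33.0 CPM with bortezomib, 30.3, 36.5 and 35.1 CPM with elesclomol, 42.0, 28.9 and 31.1 CPM with the combination and 44.2, 33.8 and 31.0 CPM with the delayed combination, against 32.3, 34.6 and 32.9 CPM with PBS. PTTG1 and UBE2C, the ubiquitin-conjugating enzyme of the complex, overlapped PBS in every group, at 0.06 ± 0.15 and -0.06 ± 0.19 over all treatments.

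Both mitotic chromosome genes lay below 0 in all 4 comparisons with PBS. TOP2A, the topoisomerase that untangles sister chromatids, was at 234, 239.5 and 279.7 CPM with bortezomib, 290.1, 338 and 275 CPM with elesclomol, 150.5, 323 and 251 CPM with the combination and 366, 184 and 289.6 CPM with the delayed combination, against 334, 359 and 388 CPM with PBS. The bortezomib and combination libraries lay below PBS without overlap (-0.52 ± 0.26 and -0.58 ± 0.26, edgeR adjusted p = 0.476 and 0.359). Combination 1, one of the 3 GC-rich libraries, was the lowest, and without it the change with the combination was -0.33 ± 0.22. After the GC and length correction TOP2A stood at -0.23 ± 0.13 over all treatments, and at -0.43 ± 0.20 as counted. MKI67, the Ki-67 protein that coats mitotic chromosomes, was at 363, 392.5 and 543 CPM with bortezomib, 556, 509.9 and 383 CPM with elesclomol, 305, 427 and 375 CPM with the combination and 422, 344 and 353 CPM with the delayed combination, against 387, 539 and 566 CPM with PBS. The combination and delayed combination overlapped PBS only through PBS 1 (-0.43 ± 0.19 and -0.42 ± 0.19, adjusted p = 0.353 and 0.450). With bortezomib and elesclomol MKI67 was at -0.20 ± 0.19 and -0.04 ± 0.19.

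FOXM1, the transcription factor that switches on many of these genes, lay on the opposite side. It was at 80.6, 52.7 and 76.5 CPM with bortezomib, 61.2, 65.5 and 62.6 CPM with elesclomol, 75.6, 53.4 and 63.8 CPM with the combination and 67.3, 75.0 and 64.9 CPM with the delayed combination, against 53.1, 59.0 and 56.6 CPM with PBS. Of the 12 treated libraries 10 lay above every PBS library and bortezomib 2 lay below (0.24 ± 0.12, edgeR adjusted p = 0.371). The elesclomol and delayed combination libraries did not overlap PBS. After the GC and length correction its change was 0.12 ± 0.09.

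Per kilobase of the merged exons of a gene, TOP2A was the most abundant of the 39 genes with PBS and elesclomol. TOP2A was at 39.01 ± 3.86, 46.7 ± 5.10, 37.5 ± 13.5 and 43.5 ± 14.2 CPM per kilobase with bortezomib, elesclomol, the combination and the delayed combination, and 56.0 ± 4.20 with PBS (SD). CKS2 was at 41.5 ± 8.32, 34.8 ± 2.80, 39.98 ± 8.37 and 43.8 ± 4.62 CPM per kilobase in the same 4 groups and 48.6 ± 3.17 with PBS, above TOP2A in 3 of them by less than the spread. With PBS it was followed by NUSAP1 at 39.5 ± 2.87 and MKI67 at 38.8 ± 7.51, a pair that lay within their spread. CDC25C was the least abundant at 3.11 ± 0.37 CPM per kilobase with PBS, under CENPA at 8.12 ± 0.29 and KIF23 at 8.46 ± 0.82, which overlapped each other.

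Each drug was set against PBS separately. With bortezomib 31 of the 39 genes lay below 0 (47.4% of all tested genes), with a median of -0.17 beside 0.02 over all genes. CDK1, KIF23 and ANLN were lower at an unadjusted p under 0.05 (3.84% of all) and 0 were higher (6.76%), while 13 had libraries below PBS without overlap (9.61%) and 0 above it (10.5%). The median moved with single libraries, to -0.30 without bortezomib 1, -0.09 without bortezomib 2 and -0.11 without PBS 3. With elesclomol 36 of 39 lay below 0 (49.3%), with a median of -0.30 beside 0.00 over all genes. Here 5 genes were lower at an unadjusted p under 0.05 (3.19%) and CDC25B was higher (4.88%), while 17 lay below PBS without overlap (10.2%) and 2, CDC25B and FOXM1, above it (9.55%). By edgeR's adjusted p 0 of the 39 passed with elesclomol (0.0688% of all tested genes) and 0 with each of the other treatments (0% of all), and DESeq2 called 0 in each. Of all tested genes DESeq2 called 9 with bortezomib, 49 with elesclomol, 51 with the combination and 51 with the delayed combination. Limma voom called 4 with bortezomib (741 of all tested genes), 7 with the combination (1394) and 0 with elesclomol (54) or the delayed combination (168). Of the 4 with bortezomib FOXM1 was higher (0.37 ± 0.10 by voom) and the others were lower, and all 7 with the combination were lower.

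Elesclomol 1 had a mean host marker level of 4.09 log2 CPM, and the other 14 libraries 2.24 to 3.05. The 15 erythroid markers summed to 188 to 728 CPM with elesclomol and 209 to 225 CPM with PBS. TFRC, the transferrin receptor on that list, alone averaged 152 CPM over all libraries. The 13 granulocyte markers summed to 14.8 to 145 CPM with elesclomol and 16.6 to 30.0 CPM with PBS, and elesclomol 1 was the highest for both lists. The 11 stromal and bone markers summed to 123.1 to 156 CPM with bortezomib, 129 to 202 CPM with elesclomol, 112 to 157 CPM with the combination, 132 to 238 CPM with the delayed combination and 104 to 134 CPM with PBS. Of these RUNX2, SPARC and FN1 averaged 35.8, 31.9 and 20.5 CPM over all libraries. TFRC and these genes are part of the host marker level. Whether their reads came from host or tumour cells was not tested. COL1A1, a collagen of bone, was at 7.91 to 47.6 CPM in all treated libraries and 2.13 to 3.98 CPM with PBS (2.75 ± 0.73, edgeR adjusted p = 0.224). COL1A2, its partner chain, was at 10.2 to 51.9 CPM and 2.29 to 9.52 CPM in the same order (1.88 ± 0.56, adjusted p = 0.270). RUNX2, a bone transcription factor on the same list, was at 21.96 to 40.8 CPM in treated libraries and 39.9 to 50.4 CPM with PBS, which overlap (-0.40 ± 0.14, adjusted p = 0.296). Of the 8 stromal and bone genes tested, 5 lay above 0 and 3 below with a median of 0.12, and none passed the adjusted test. The 6 endothelial markers summed to 0.28 to 12.2 CPM in treated libraries and 0.69 to 2.71 CPM with PBS, and the 11 macrophage markers to 13.7 to 70.4 CPM and 14.9 to 30.8 CPM in the same order. Over all treatments the 2 tested endothelial genes lay above 0 with a median of 1.26, and the 4 tested macrophage genes with a median of 0.42. The endothelial genes, CDH5 and KDR, averaged only 1.00 and 1.11 CPM over all libraries. Of the 6 tested granulocyte genes 4 lay below 0, with a median of -0.19. Of the 5 tested erythroid genes 4 lay above 0, with a median of 0.29, while HEMGN was at -0.96 ± 0.32 (edgeR adjusted p = 0.296). Without elesclomol 1 the median of the 39 genes was -0.23, and with the mean level of host markers as a covariate it was -0.16, with 28 genes below 0 (50.5% of all tested genes). With that covariate the medians were -0.11 with bortezomib, -0.14 with the combination and -0.04 with the delayed combination, and -0.07 over all treatments. The part of host cells in the lower levels was not tested beyond these values.

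With the combination 28 of 39 lay below 0 (48.3%), at a median of -0.14 beside 0.01 over all genes. At an unadjusted p under 0.05, CDK1, TTK, KIF23, TOP2A and MKI67 were lower (5.92%) and 0 were higher (7.72%), while 9 lay below PBS without overlap (10.9%) and 0 above it (11.3%). With the delayed combination 28 of 39 lay below 0 (48.7%), with a median of -0.08 beside 0.01. Only CDK1 and MKI67 were lower at an unadjusted p under 0.05 (5.03%) and 0 were higher (6.03%), while 7 lay below PBS without overlap (14.7%) and FOXM1 above it (12.8%). With limma voom the medians were -0.28 with the combination (36 of 39 below 0), -0.16 with the delayed combination (35) and -0.23 over all treatments (37). In the same order 49.2%, 50.4% and 49.3% of all tested genes lay below 0 by voom. Without the 3 GC-rich libraries 36 lay below 0 with the combination (median -0.19), beside 48.5% of all tested genes. The median with the combination was -0.22 without PBS 1 and -0.08 without combination 3. With the delayed combination it was -0.16 without delayed combination 1, -0.13 without PBS 1, -0.01 without delayed combination 3 and -0.00021 without PBS 3.

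**Figure D2:**
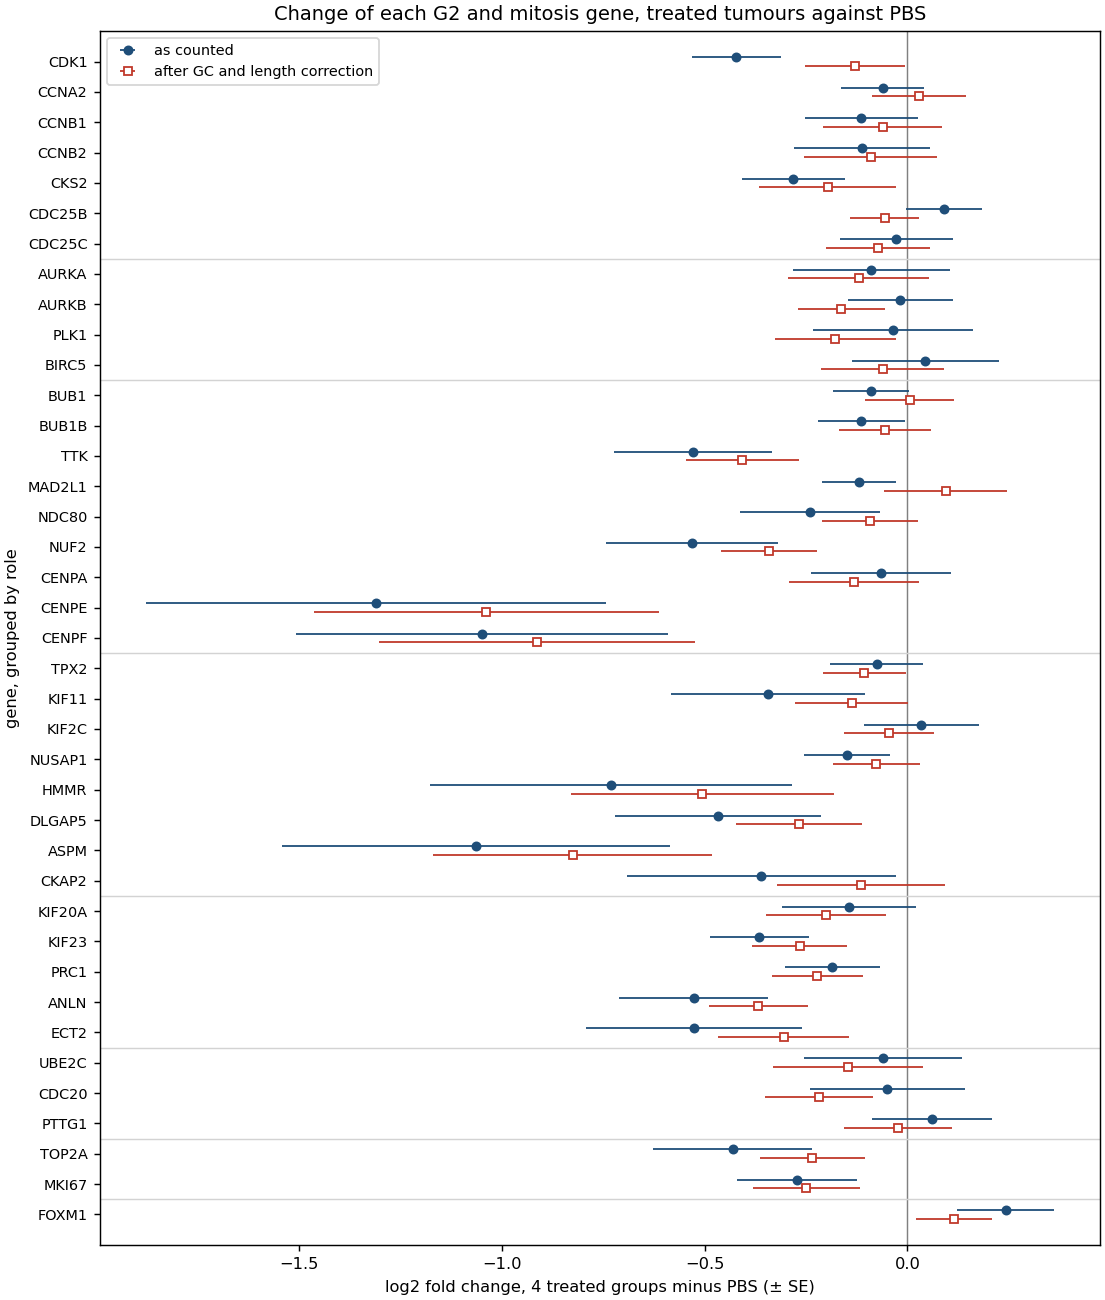
Log2 fold change of each of the 39 genes, 4 treated groups minus PBS, with its standard error, grouped by role; filled circles are values as counted and open squares those after the GC and length correction. Kinetochore, spindle assembly and midzone genes hold the lowest values, CENPE being the furthest at -1.31 ± 0.57, and CDK1 stands at -0.42 as counted and -0.13 after the correction.

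The 39 genes divided by the GC content of their transcripts. The genes below the median of the list, 42.6% GC, were 19 and those at or above it 20, while the median of all tested genes was 47.4%. Roles differed in GC content. All genes of the mitotic kinase and anaphase-promoting complex roles lay above the list median, and the kinetochore genes below it except BUB1B and CENPA. The lower-GC genes had median changes of -0.50 with bortezomib, -0.46 with elesclomol, -0.52 with the combination and -0.36 with the delayed combination. The higher-GC genes had medians of -0.03, -0.17, 0.00 and -0.01 in the same order. Across the 39 genes the correlation of log2 change with GC content was 0.72, 0.60, 0.76 and 0.63, beside 0.40, 0.25, 0.41 and 0.33 over 12794 tested genes with a known GC content. The genes share the same libraries, so these correlations are descriptions.

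**Figure D3:**
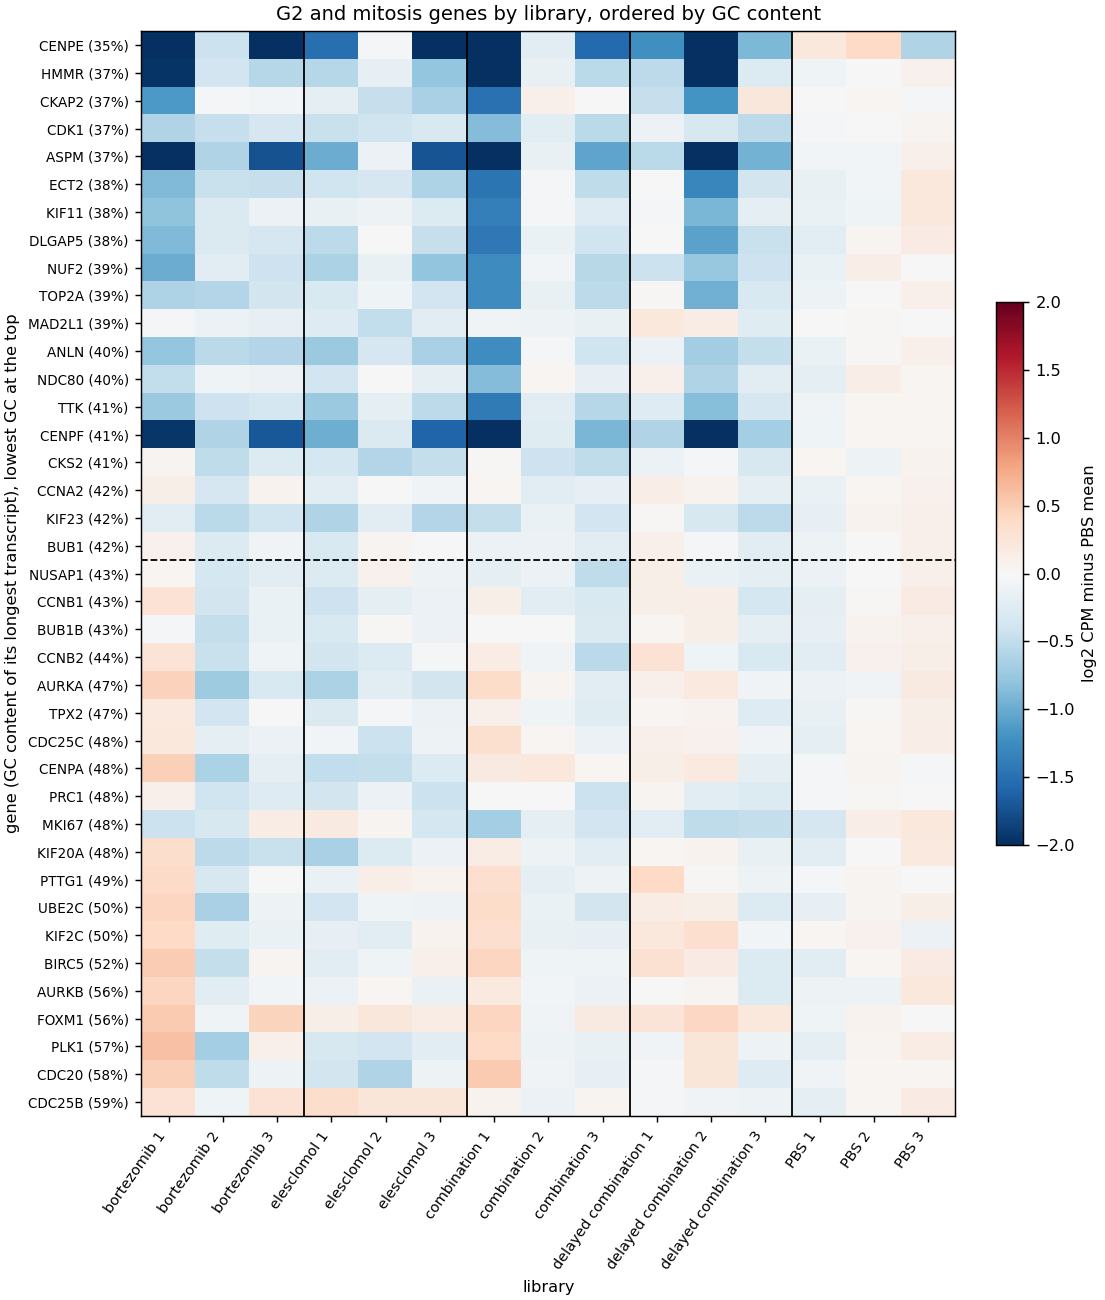
Log2 CPM minus the PBS mean for each of the 39 genes (rows, lowest GC content at the top, with the midpoint of the list dashed) in each of the 15 libraries (columns, by group); blue is lower and red higher. The lower-GC rows are darkest blue in bortezomib 1, combination 1 and delayed combination 2, where many higher-GC rows are red.

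The division was widest in 3 treated libraries. Over all tested genes, the deviation from the mean correlated with GC content at 0.52, 0.50 and 0.32 in bortezomib 1, combination 1 and delayed combination 2, and at -0.36 to -0.31 with PBS. In these 3 libraries the lower-GC mitosis genes had medians of -0.77, -1.26 and -0.86 relative to the PBS mean, while the higher-GC genes had 0.37, 0.18 and 0.10. In bortezomib 2, with a GC correlation of -0.32 like that of PBS, both sets were lower together, at -0.41 and -0.39. In elesclomol 2 and combination 2, with GC correlations of -0.28 and -0.27, the lower-GC medians were -0.17 and -0.13 and the higher-GC medians -0.10 and -0.09. Without the 3 libraries, 37 of 39 were below 0 over all treatments (48.3% of all tested genes) with a median of -0.20. In that fit 14 were lower at an unadjusted p under 0.05 (6.83% of all tested genes). CDK1 was then at -0.36 ± 0.09 (edgeR adjusted p = 0.117) and TTK at -0.38 ± 0.11 (0.150). After the GC and length correction with all libraries, 35 of 39 lay below 0 (47.0% of all) with a median of -0.14, and 7 were lower at an unadjusted p under 0.05 (5.34% of all). ANLN (-0.37 ± 0.12), TTK (-0.41 ± 0.14) and NUF2 (-0.34 ± 0.12) then had the smallest p, with adjusted p of 0.337, 0.348 and 0.348. None of the 39 passed in either case, where 49 and 13 of all tested genes were called.

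**Figure D4:**
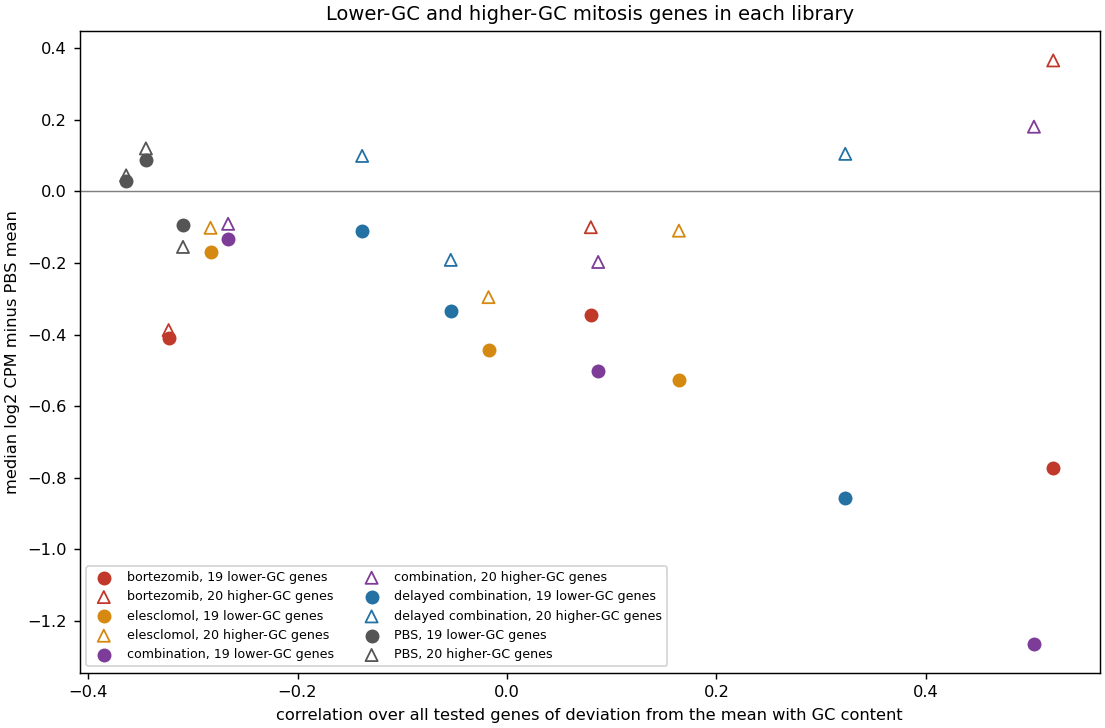
Median log2 CPM minus the PBS mean of the 19 lower-GC genes (filled circles) and the 20 higher-GC genes (open triangles) in each library, against the correlation over all tested genes of the library's deviation from the mean with GC content. The 2 sets part towards the right, to -1.26 and 0.18 in combination 1, and lie together at the left, at -0.41 and -0.39 in bortezomib 2 and at -0.13 and -0.09 in combination 2.

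Within groups, genes of like GC content mostly varied together. The median correlation of deviations from the group means over the 15 libraries was 0.69 for pairs of lower-GC genes, 0.75 for pairs of higher-GC genes and -0.30 for mixed pairs. The division was not complete: CKS2, CCNA2, BUB1, MAD2L1 and KIF23 among the 19 lower-GC genes were closest to a higher-GC gene, and MKI67 among the 20 higher-GC genes was closest to KIF11, a lower-GC gene. ASPM and CENPF correlated at 0.99. CENPE, ASPM, CENPF and HMMR had within-group standard deviations of 1.06, 0.91, 0.89 and 0.85 log2 units, against a median of 0.21 over all tested genes and 0.28 over the 39. These 4 hold the lowest log2 changes of the 39 in the comparison over all treatments, and their standard errors there were 0.45 to 0.57.

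Between treatments, 0 to 2 of the 39 genes had an unadjusted p under 0.05 in each comparison. Between the combination and bortezomib 22 of 39 lay below 0 (52.7% of all tested genes), at a median of -0.02, and 0 had an unadjusted p under 0.05 (1.95% of all were lower and 2.29% higher). Libraries of the 2 groups overlapped for every one of the 39 (3.93% of all tested genes were lower and 4.26% higher without overlap). Between the combination and elesclomol 17 lay below 0 (51.1%) with a median of 0.04. CENPA, the centromeric histone, was at 18.2, 18.6 and 16.5 CPM with the combination, against 11.3, 11.5 and 13.3 CPM with elesclomol, without overlap (0.56 ± 0.21, edgeR adjusted p = 0.317). CDC25B was at 59.4, 52.0 and 58.7 CPM with the combination, against 72.2, 66.6 and 67.0 CPM with elesclomol (-0.27 ± 0.12, adjusted p = 0.364). Those were the 2 genes with an unadjusted p under 0.05 in that comparison (5.82% of all were lower and 6.39% higher). Without overlap, CDC25B was lower (7.47% of all) and AURKA, CENPA, MAD2L1 and PLK1 were higher (8.57%).

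Between the delayed combination and bortezomib 10 of 39 lay below 0 (52.4%) with a median of 0.04, and CDC25B was the only gene with an unadjusted p under 0.05, lower at -0.25 ± 0.12 (2.24% of all were lower and 1.28% higher). All 39 overlapped there (3.86% of all were lower and 2.83% higher without overlap). Between the delayed combination and the combination 14 lay below 0 (51.3%) with a median of 0.06 and 0 had an unadjusted p under 0.05 (1.54% lower and 1.09% higher), and all 39 overlapped (4.05% lower and 3.54% higher without overlap). The interaction of bortezomib and elesclomol compares the combination with the sum of the single-drug changes. Of the 39 genes 33 were above 0 in it, leaving 6 below (51.4% of all tested genes were below), with a median of 0.30. The median was 0.11 with the host marker covariate, 0.18 without elesclomol 1 and 0.17 without combination 2. KIF23 (0.52 ± 0.22) was above 0 and CDC25B (-0.44 ± 0.17) below 0 at an unadjusted p under 0.05 (3.57% and 5.22% of all). By edgeR's adjusted p 0 of the 39 passed between treatments or in the interaction, and DESeq2 and limma voom called 0. The small medians between treatments changed sign with single libraries, to 0.08 without bortezomib 1 for the combination against bortezomib, -0.05 without delayed combination 1 for the delayed combination against bortezomib, and -0.06 without it for the delayed combination against the combination. For the combination against elesclomol the median was -0.09 with the host marker covariate. In all tested genes 0 passed between treatments (0%) and 0.00764% in the interaction.

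Other cell cycle genes were set beside the 39. A list of 67 further G2 and mitosis genes lay nearer to 0 except with the combination, with medians of -0.06 with bortezomib, -0.13 with elesclomol, -0.15 with the combination and -0.03 with the delayed combination. Of these 67, 39, 56, 47 and 38 were below 0 in those comparisons, beside 47.4%, 49.3%, 48.3% and 48.7% of all tested genes. Over all treatments NCAPG, a condensin subunit, was at -0.37 ± 0.12, DEPDC1 at -0.89 ± 0.32 and MASTL, the kinase that restrains the phosphatase opposing CDK1, at -0.29 ± 0.11. Their adjusted p were 0.296, 0.308 and 0.311 by edgeR.

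Genes of DNA replication lay mostly above 0 except with the combination. Of 47 tested, 39 lay above 0 with bortezomib (median 0.14), 37 with elesclomol (0.11), 22 with the combination (-0.01) and 38 with the delayed combination (0.11). Among all 13085 tested genes 6884, 6640, 6768 and 6710 lay above 0 in the same order. By library, their median relative to the PBS mean was 0.29, -0.07 and 0.15 with bortezomib and 0.06, 0.15 and 0.14 with elesclomol. It was 0.15, -0.095 and -0.098 with the combination and 0.17, 0.16 and -0.006 with the delayed combination. Bortezomib 1, combination 1 and delayed combination 2 are the GC-rich libraries. CDC6, which loads the replicative helicase, and POLA1, the catalytic subunit of the primase polymerase, had the smallest p over all treatments, at 0.26 ± 0.12 and -0.26 ± 0.11 (edgeR adjusted p = 0.347 and 0.337). Between the combination and bortezomib 42 of the 47 lay below 0, with a median of -0.15, beside 52.7% of all tested genes.

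Regulators of the G2 and M programme (31 genes) had medians of 0.06, 0.03, 0.00 and 0.03 in the 4 comparisons with PBS. TFDP1, the dimer partner of E2F factors, was at 0.27 ± 0.10 over all treatments (edgeR adjusted p = 0.297). E2F4, a subunit of the repressive DREAM complex, was at 0.22 ± 0.09 (0.322), and E2F7, an atypical repressor, at -0.31 ± 0.11 (0.309). Of 19 genes of G1 and CDK inhibitors 15 were tested. CCNG2, an atypical cyclin, was at -0.31 ± 0.14 and CDK4, the kinase of D cyclins, at 0.21 ± 0.10 over all treatments (adjusted p = 0.355 and 0.356). By edgeR's adjusted p 0 genes of these 4 lists passed in any comparison.

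**Figure D5:**
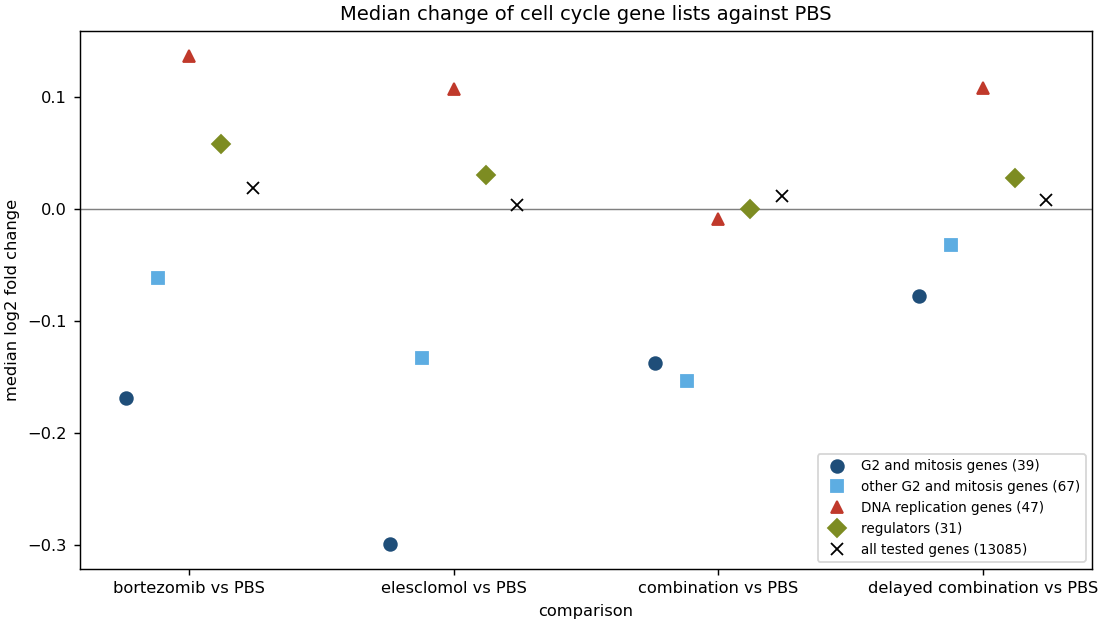
Median log2 fold change of the 39 G2 and mitosis genes, of 3 other cell cycle lists and of all 13085 tested genes in each comparison with PBS. The 39 genes lie at -0.17, -0.30, -0.14 and -0.08 from left to right, and the replication genes lie above 0 except with the combination (-0.01).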

How the data were processed

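The values used are the authors' deposited counts of reads per gene in 15 libraries, 3 per group, from femur marrow RNA prepared with a stranded total RNA kit after removal of ribosomal RNA, per the labels' protocols. STAR 2.5.4b, featureCounts 1.6.1 and the GRCh37 build are named in the submitters' processing notes. For strand in counting, gene annotation and mouse reads, the settings were not given in the sources used here. Symbols were found for 51996 of 57773 gene IDs.

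The members and lists were chosen with earlier results of these data known. Genes were kept by edgeR's filterByExpr (minimum count 10), which left 13085, and libraries were scaled by TMM. All 15 libraries were fitted in one edgeR 4.0.16 quasi-likelihood model (R 4.3.3, 10 residual degrees of freedom, common biological coefficient of variation 0.171), with 10 comparisons and Benjamini-Hochberg adjustment over all tested genes at a threshold of 0.05. P-values measure only the spread between these libraries. Genes described in full were, for each role, the one with the highest mean CPM and those with the smallest p in any comparison with PBS, and up to 3 genes by p were named of other lists. CDC25B, PLK1, CENPE, HMMR and CENPA fell outside this rule and were described after their values were seen. UHRF1, MRC1 and PECAM1 of the lists were not analysed here.

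Alternatives were DESeq2 1.42.0, its size factors in edgeR, limma 3.58.1 voom with quality weights, other filters, fits of the compared groups alone, replicate number as a block, host marker level as a covariate, and leaving out each library. A loess (span 0.3) correction for GC content and length, known for 12794 tested genes (97.8%), a fit without 3 libraries and library sizes without mitochondrial genes were added after seeing the data. Same-numbered bortezomib and combination libraries deviated together, at correlations of 0.13 to 0.68, and no other groups did so in every pair. The pair at 0.68 was bortezomib 1 and combination 1, both GC-rich. Unlike-numbered pairs of these 2 groups ranged from -0.61 to 0.24, and combination 1 with delayed combination 2 was at 0.50. The fits were tested on simulated data. Replicates differed beyond sampling noise in every group, and less so with PBS. The chi-square per degree of freedom between pairs of libraries was 2.13 to 3.00 with PBS and 5.07 to 24.0 in the treated groups. The edgeR model shares its estimate of the spread over all groups. Depth limits the precision of the least abundant genes. Figures and tables were made with Python 3.11.15, pandas 2.3.3 and matplotlib 3.10.9.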

Additional observations from a re-analysis of the deposited data

How the results depend on the processing

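No gene of the 39 passed with DESeq2, with its size factors in edgeR, with a filter at a mean of 3 log2 CPM, with the host marker covariate, with the replicate block, with the GC and length correction, without the 3 GC-rich libraries or with library sizes without mitochondrial genes, the last 3 chosen after seeing the data. Over all treatments DESeq2 called 56 of all genes and the fit with the host marker covariate 0. The GC and length correction called 13 there, and the fit without the 3 GC-rich libraries 49. With limma voom 4 passed with bortezomib, 7 with the combination and 7 over all treatments, where voom called 741, 1394 and 1322 of all genes. Without the filter 1 passed with bortezomib, 1 with elesclomol, 2 with the combination and 3 over all treatments. That fit called 76, 129, 211 and 246 of all genes in the same order. With only the groups compared 1 passed with elesclomol, where 136 of all genes were called. The cause was not tested. Leaving out each library in turn gave 0 to 0 genes passing in every comparison. The median of the 39 then ranged over -0.30 to -0.09 with bortezomib, -0.33 to -0.23 with elesclomol, -0.22 to -0.08 with the combination, -0.16 to -0.00021 with the delayed combination and -0.20 to -0.10 over all treatments. Between treatments it ranged over -0.08 to 0.08 (combination against bortezomib), -0.0011 to 0.13 (combination against elesclomol), -0.05 to 0.13 (delayed combination against bortezomib) and -0.06 to 0.13 (delayed combination against combination), and 0.17 to 0.35 in the interaction. The interaction median was 0.11 with the host marker covariate. Over all treatments AURKA was at 0.011 with that covariate and ranged over -0.19 (without bortezomib 1) to 0.012 (without PBS 3) as libraries were left out, with -0.25 without the 3 GC-rich libraries and -0.22 with voom, against -0.09 in the reported fit. PTTG1 was at -0.014 with voom, -0.023 after the GC and length correction and -0.022 without the 3 GC-rich libraries, against 0.06. The replicate block changed no call: 0 genes passed in each comparison with it, as without.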
